A study of Homo sapiens with 12 samples.

Results

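The nuclear genome encodes most subunits of the 5 complexes of oxidative phosphorylation, and these genes were followed through the poly-A RNA of HEK293T cells, a human embryonic kidney line that carries the SV40 large T antigen. Members were chosen by gene symbol among loci on chromosome-named sequences, as the NDUFA, NDUFB, NDUFC, NDUFS and NDUFV genes (complex I), SDHA to SDHD (complex II), 8 UQCR genes (complex III), the COX4 to COX8 genes the name patterns cover (complex IV) and the ATP5F1, ATP5M and ATP5P genes (ATP synthase). That gave 127 of 67053 loci, 37 in complex I, 4 in complex II, 8 in complex III, 14 in complex IV and 64 in ATP synthase. By RefSeq 81 were protein-coding and 46 were pseudogenes. Every pseudogene was an ATP5 copy because only the ATP5 name pattern admits the suffix of a pseudogene symbol. Of the 64 ATP synthase members 18 were protein-coding. A level filter, an FPKM (fragments normalised to transcript length and library depth) of at least 1 in at least 2 libraries, was passed by 75 members, namely all members of complexes I to III, 9 of complex IV and 17 of ATP synthase. Of the 52 that did not pass, 32 were at 0 FPKM in all 6 libraries, and no pseudogene exceeded 0.971 FPKM in any library.

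Cells were transfected with 2 µg of a plasmid whose GFP reporter carried a BCL2L11 trigger, a TRIM9 trigger or, in the GFP control, neither. All 3 groups thus carried a GFP plasmid. The transfection reagent was lipofectamine or PEI, and the labels do not say which was used for which sample. A trigger is a stretch of mRNA that pairs extensively with a microRNA and leads to its degradation, and the study asked whether these triggers lowered their microRNAs. RNA was taken 48 h after transfection, and each group had 2 poly-A libraries, described as biological replicates. The sample titles number these libraries 1 to 6. Titles 1 to 3 (replicate 1 of each group) are called set 1 and titles 4 to 6 (replicate 2) set 2, since the labels state neither a pairing nor a batch. Values of a set are given in the order BCL2L11, TRIM9, GFP, and p-values measure only the spread between these libraries.

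The respiratory chain lies in the inner mitochondrial membrane. Complex I takes electrons from NADH and complex II takes them from succinate, both pass them to ubiquinone, complex III hands them on to cytochrome c and complex IV to oxygen. Complexes I, III and IV pump protons, and ATP synthase uses the proton gradient to make ATP. Complex II is built from nuclear genes alone, whereas the other complexes also need subunits encoded by mitochondrial DNA, so that the expression of both genomes has to be matched.

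In transcripts the libraries held 3.40 to 4.09 gigabases of aligned sequence in set 2 and 3.53 to 4.52 in set 1. Transcripts with FPKM above 0 numbered 109805 to 110534 in set 2 and 83584 to 100723 in set 1, the lowest being GFP replicate 1. The genes behind the triggers were high in the libraries labelled for them. BCL2L11 had 11484 and 11275 FPKM with its trigger and 3.95 and 6.32 FPKM with the TRIM9 trigger, against 5.40 and 6.15 FPKM in GFP cells. TRIM9 had 5297 and 3948 FPKM with its trigger and 1.21 and 2.30 FPKM with the BCL2L11 trigger, against 1.74 and 2.92 FPKM in GFP cells. Of the HEK293T markers, the intermediate filament gene VIM lay at 368 to 500.1 FPKM, and IRS4, LIN28B, NEFM and NEFL were detected in every library, whereas PAX2 stayed below the filter. The blood markers PTPRC, HBB and CD3E and the keratin gene KRT5 were at 0 FPKM in all 6 libraries. Other markers of other cell types passed the filter at low levels. They were HBA1 (blood, 2.35 to 7.45 FPKM), EPCAM (epithelial, 0.611 to 1.32), COL1A1 (fibroblast, 1.27 to 4.02), ACTA1 (muscle, 2.05 to 5.75) and ALB (liver, 0.280 to 2.06).

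As a group the tested members were abundant. The median of their mean FPKM over the 6 libraries was 110.73, against 6.30 for all 15183 loci tested, which placed it at percentile 96.4. Together the members took 2.74% and 1.82% of all FPKM in the BCL2L11 libraries (replicates 1 and 2) and 2.42% and 1.86% in the TRIM9 libraries, against 2.46% and 1.83% in the GFP libraries. Within complex I the levels spread over 51.4-fold (25.7-fold with all loci of a symbol summed), within ATP synthase over 13.1-fold, within complex IV over 9.23-fold, within complex III over 8.12-fold and within complex II over 2.11-fold. The order of genes within a complex is thus a measured feature of these libraries, but FPKM of a gene with several transcript models depends on how reads were divided among them. That order is given for means over the 6 libraries and differed in part between the sets.

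In complex I the highest levels belonged to small accessory subunits. NDUFS5 averaged 245 FPKM (132 to 367 over the 6 libraries), NDUFB8 239.5 and NDUFB11 205. The lowest were NDUFS1, the large iron-sulfur subunit of the NADH-oxidising arm, with 4.76 FPKM, and the accessory subunit NDUFA6 with 8.32 FPKM. Both are also listed off the assembled chromosomes, with 2 loci in all for NDUFS1 and 5 for NDUFA6, and so is NDUFA3, with 10, so their chromosomal values leave out part of the signal. Summed over all its loci NDUFA6 had 67.1 and 30.1 FPKM with the BCL2L11 trigger and 51.3 and 25.2 FPKM with the TRIM9 trigger, against 54.8 and 33.3 FPKM in GFP cells, and its low rank held for the chromosomal locus alone. The other NDUFS1 locus was listed with the same 3.19 to 6.30 FPKM as the chromosomal one. Summed over all its loci NDUFA3 had 211 and 58.8 FPKM with the BCL2L11 trigger and 101.8 and 56.9 FPKM with the TRIM9 trigger, against 25.3 and 44.2 FPKM in GFP cells. The 7 core subunits with nuclear genes, which hold the flavin and iron-sulfur clusters, ranged from 4.76 FPKM for NDUFS1 to 139 FPKM for NDUFS8. The median of the 30 accessory subunits was 77.3 FPKM, and that of the 7 core subunits was close to it at 76.15 FPKM. NDUFV1, which binds NADH and the flavin, averaged 82.8 FPKM, its partner NDUFV2 65.4, and NDUFS3 and NDUFS7 near the quinone site 95.3 and 36.0. NDUFA4 (68.4 FPKM) is counted with complex I by its name, although its protein is now placed in complex IV.

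**Figure D1:**
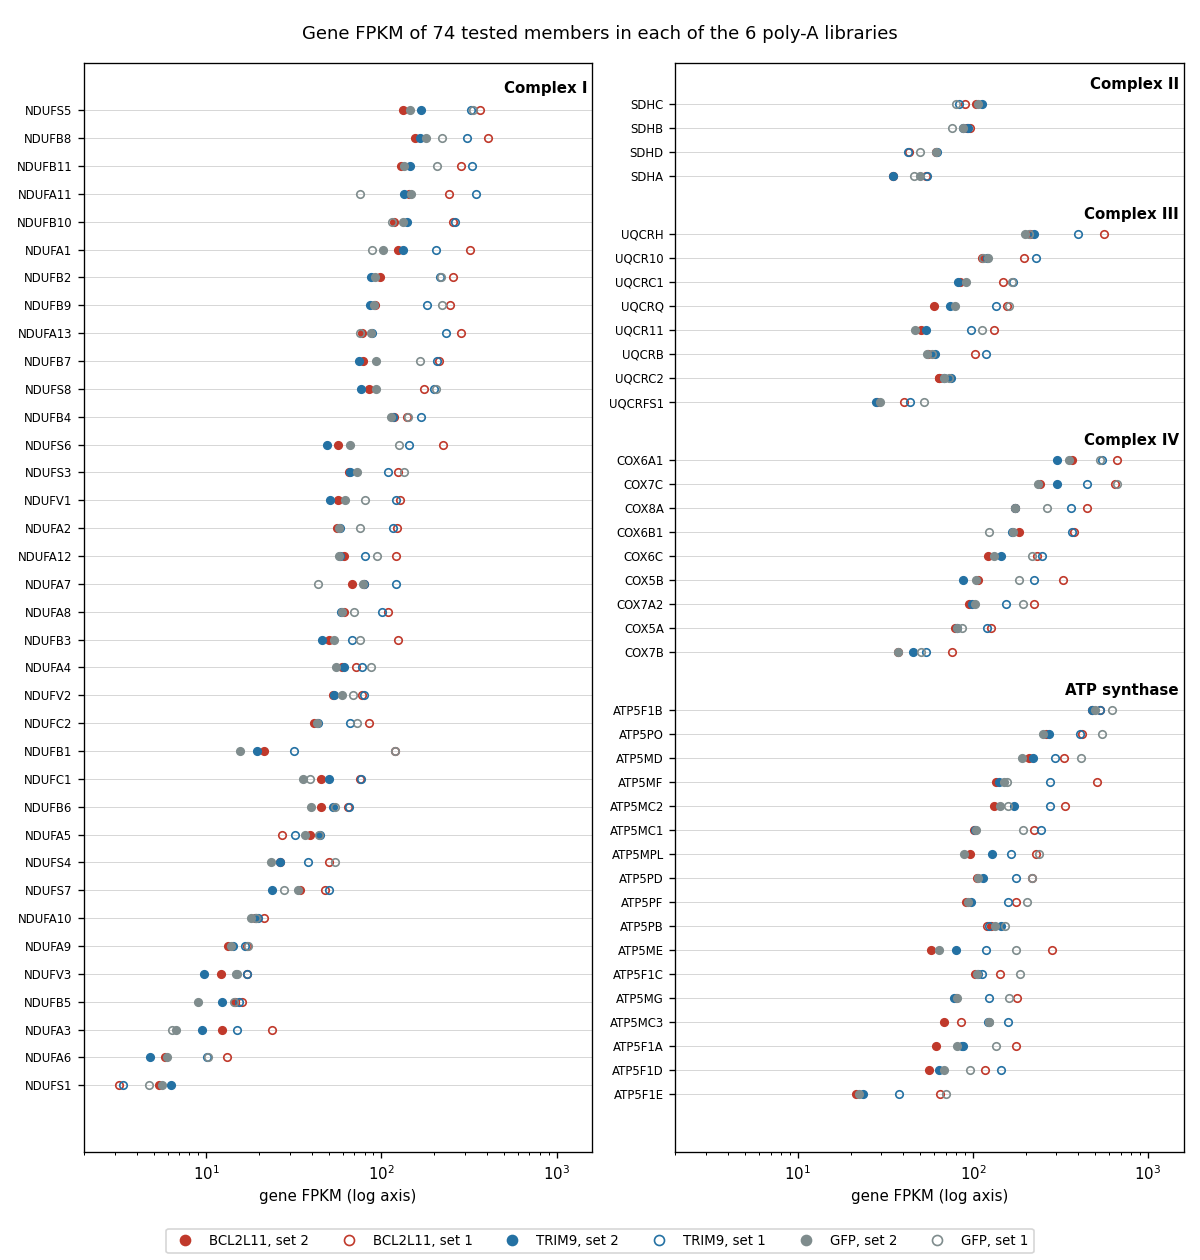
Gene FPKM (log axis) of 74 of the tested members, 1 row a gene, ordered by mean level within each complex. Filled points are set 2 and open points set 1, coloured by group. In most rows the filled points lie to the left of the open ones, while the 3 filled points of a row lie close together, and SDHC and SDHD run the other way.

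In complex II the membrane anchor SDHC (96.4 FPKM) and the iron-sulfur subunit SDHB (88.7) stood above the other anchor SDHD (53.4) and the flavoprotein SDHA (45.8). In complex III the hinge protein gene UQCRH was highest with 301 FPKM, followed by UQCR10 with 149 and the core protein gene UQCRC1 with 124. The other core protein gene UQCRC2 (68.8 FPKM) and UQCRFS1, the Rieske iron-sulfur protein (37.0), were lowest. A near-identical copy, UQCRHL, was listed at 1.002 to 2.96 FPKM and could share reads with UQCRH.

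In complex IV the broadly used isoform of each paralogous pair carried nearly all of the signal. COX6A1 averaged 461 FPKM against 0.0458 for COX6A2, the heart and skeletal muscle form. COX7A2 averaged 145 FPKM against 0.189 for COX7A1, the other muscle form. COX6B1 averaged 231 FPKM against 0.456 for COX6B2, COX8A 266 against 0.153 for COX8C, and COX7B 49.99 against 0 for COX7B2, where the second gene of each pair is known from testis. These 5 tissue isoforms and ATP5MGL (at most 0.163 FPKM) were the 6 protein-coding members below the filter. COX7C followed COX6A1 with 422 FPKM, and the lowest of the 9 tested were COX5A with 95.7 and COX7B.

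ATP synthase led with ATP5F1B, the catalytic beta subunit, at 522 FPKM (476 to 621), the highest mean of all members. ATP5PO, which joins the head to the outer stalk, averaged 359 FPKM and the small membrane subunit ATP5MD 276. ATP5F1D and ATP5F1E, of the central stalk, were lowest with 91.1 and 40.0 FPKM. Subunit c, which forms the rotor ring, is made from 3 genes whose mature proteins are the same. ATP5MC2 averaged 202 FPKM, ATP5MC1 162 and ATP5MC3 114, so that each gene held a sizeable part of the signal.

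Beyond their names the tested members shared compact transcripts. The most abundant transcript of a member had a median length of 773 bases and 4 exons, against 2692 bases and 7 exons over all loci tested. Median depth over these transcripts was 308 reads per base. In 47 of the 75 members a single transcript model held at least 50% of the gene's FPKM in all 6 libraries, and in 28 it did not in at least 1. Annotated loci on the same strand overlapped 30 members and loci on the opposite strand 34, and the sources used here do not say whether strand was used in counting. The read-through loci ATP5MF-PTCD1 and NDUFC2-KCTD14 span 2 of the members.

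Promoters of many respiratory genes are known to bind nuclear respiratory factor 1 (NRF1), the ETS factor GABP (nuclear respiratory factor 2) and YY1. The RefSeq windows of GRCh38.p14, 250 bases before to 50 after the start of a gene, were found for 63 of the 75 tested members and searched on both strands for 3 motifs. The NRF1 motif, GCGC then A, any base N and GCGC, was in 16 of the 63 (25.4%), against 6.28% of 27305 promoters and 12.6% of the 10182 promoters of tested loci. CCGGAAG (ETS) was in 19 (30.2%), against 10.7% and 20.1%. AANATGGC (YY1) was in 22 (34.9%), against 6.82% and 10.7%. At least 1 of the 3 was in 41 members (65.1%), against 20.8% and 37.0%. These are matches of letters, with no measurement of binding, and an ETS and a YY1 match can share letters, since the end of CCGGAAG can begin AANATGGC. By complex the NRF1 letters were in 6 of 32 promoters of complex I, 2 of 3 of complex II, 4 of 7 of complex III, 0 of 8 of complex IV and 4 of 13 of ATP synthase, and the ETS letters in 5, 2, 3, 4 and 5. Shown first, to let the NRF1 matches be read in place, are the upstream windows of the most abundant member with a match before its RefSeq start in each complex that had one, with the motif in capitals on the gene's strand. They lie at chr19:5903871-5903896, minus strand (NDUFA11), chr11:112086755-112086780, plus strand (SDHD), chr3:48609676-48609701, minus strand (UQCRC1) and chr21:33915811-33915836, minus strand (ATP5PO). In the annotation of the files NDUFA11 and UQCRC1 reach farther upstream, so both windows lie inside those loci, and the window of ATP5PO overlaps the end of its locus.
NDUFA11: ggtccccgGCGCGTGCGCgcgatcca
SDHD: ctgtgtttGCGCATGCGCgacgggtg
UQCRC1: acggtactGCGCCTGCGCcgcgaccg
ATP5PO: gccaacgcGCGCGTGCGCccttgcgc
In all 4 the capitals are the motif read from the opposite strand, and the SDHD match reads the same on both strands. The ETS windows chosen by the same rule lie at chrX:119871777-119871799, plus strand (NDUFA1), chr1:17054146-17054168, minus strand (SDHB), chr1:46303644-46303666, plus strand (UQCRH), chr12:120438089-120438111, plus strand (COX6A1) and chr10:103396621-103396643, minus strand (ATP5MD).
NDUFA1: cgtcgcttCTTCCGGagccgtac
SDHB: ccgggaaaCCGGAAGccgcctcc
UQCRH: gtgccgcaCTTCCGGccagatcg
COX6A1: cacttccgCTTCCGGcgctgcgg
ATP5MD: caattcttCCGGAAGtgtgggcg
The COX6A1 window overlaps the start of its locus in the files. Counted from the RefSeq start of the gene the ETS match shown in capitals began at position -47 in NDUFA1, -46 in UQCRH and -16 in COX6A1, and farther upstream, at -128 and -160, in SDHB and ATP5MD. The ATP5MD promoter held 3 ETS matches. Another of them, CTTCCGG on the opposite strand, overlaps the capitals in the window shown.

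Against the GFP control neither trigger changed a member past the threshold. Gene FPKM plus 1 was taken on the log2 scale and fitted in limma over all 15183 loci, and the adjusted p-value (Benjamini-Hochberg, threshold 0.05) passed for 0 of 75 members with the BCL2L11 trigger, 0 with the TRIM9 trigger and 0 between the triggers. Over all loci 0.00659%, 0.00659% and 0.0132% passed, the triggers' own genes alone. At an unadjusted p under 0.05 there were 1, 0 and 1 members, and 83, 175 and 98 of the 15183 loci. That is fewer loci than such a threshold passes when no locus differs. The median log2 difference of the members was 0.08 for BCL2L11 against GFP, where that of all loci was -0.08, 0.00 for TRIM9 against GFP (all loci -0.04) and 0.05 for BCL2L11 against TRIM9 (all loci -0.04). The first 2 comparisons share the GFP libraries. By complex the medians for BCL2L11 against GFP were 0.20 in complex I, -0.02 in complex II, 0.01 in complex III, 0.26 in complex IV and -0.01 in ATP synthase. For TRIM9 against GFP they were 0.03, -0.01, 0.01, 0.16 and -0.12. The direction of the overall medians hung on single libraries. For BCL2L11 it was -0.32 without BCL2L11 replicate 1 and -0.15 without GFP replicate 2, but 0.64 without BCL2L11 replicate 2 and 0.45 without GFP replicate 1. For TRIM9 it was -0.26 without TRIM9 replicate 1 and -0.20 without GFP replicate 2, but 0.33 and 0.38 without TRIM9 replicate 2 and GFP replicate 1. The median standard error of a member's difference was 0.49, against 0.36 over all loci. These fits had no term for the library set, so differences between the sets entered this spread and moderate changes could be missed.

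For many members the sign of the difference was not shared by the library sets. With the BCL2L11 trigger 19 members stood above GFP in both sets, 17 below in both, and 39 went opposite ways. With the TRIM9 trigger 20 were above, 11 below and 44 opposite. Within set 2 the median difference was -0.04 for BCL2L11 and 0.02 for TRIM9 (all loci -0.12 and -0.08), and no member differed by more than 1 on the log2 scale. Within set 1 the medians were 0.21 and 0.05 (all loci -0.05 and -0.02), and 9 members with each trigger differed by more than 1. These counts of sign and size were not taken over all loci, so they do not set the members apart from other genes. Both BCL2L11 libraries lay above both GFP libraries for 8 members (4.44% of all loci did) and below for 3 (12.3% of all loci). The TRIM9 libraries lay above for 10 (6.66% of all loci) and below for 0 (11.2% of all loci). In bulk RNA a lower level of a transcript per cell and fewer cells that carry it cannot be told apart.

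**Figure D2:**
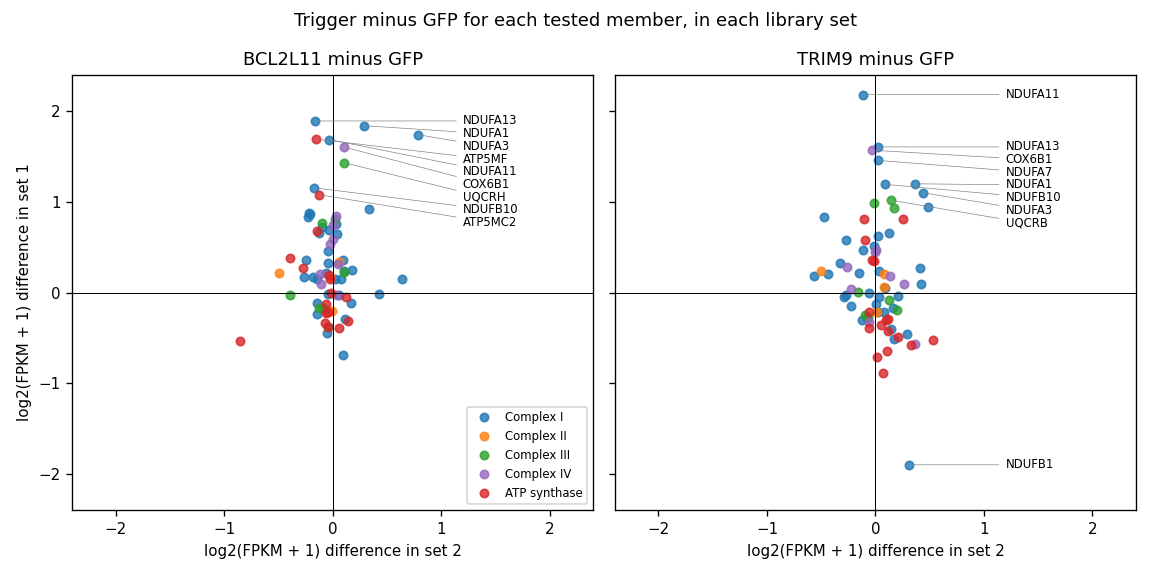
Difference in log2(FPKM + 1) between trigger and GFP library for each of the 75 tested members, within set 2 (horizontal) and within set 1 (vertical), BCL2L11 left and TRIM9 right, coloured by complex. Points spread along the vertical axis, with 9 members a panel beyond 1 in set 1 (named) and 0 beyond 1 in set 2.

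The members of lowest p in complex I were led by NDUFA3, a small membrane-arm subunit (chromosome 19, 54102728 to 54109257, plus strand, hg38). It had 23.7 and 12.3 FPKM with the BCL2L11 trigger and 14.9 and 9.39 FPKM with the TRIM9 trigger, against 6.40 and 6.68 FPKM in GFP cells. Both GFP libraries were below all trigger libraries, and BCL2L11 against GFP gave a log2 difference 1.26, SE 0.40, unadjusted p = 0.0154, adjusted p = 1. NDUFA1, another membrane-arm subunit encoded on chromosome X, had 318 and 125 FPKM with the BCL2L11 trigger and 204 and 132 FPKM with the TRIM9 trigger, against 88.2 and 102 FPKM in GFP cells (BCL2L11 log2 difference 1.06, SE 0.49, unadjusted p = 0.0678, adjusted p = 1). The groups did not overlap, but most of the gap lay in set 1. NDUFC1 had 75.1 and 45.1 FPKM with the BCL2L11 trigger and 76.2 and 50.3 FPKM with the TRIM9 trigger, against 39.1 and 35.6 FPKM in GFP cells, again with both GFP libraries lowest (TRIM9 log2 difference 0.72, SE 0.37, unadjusted p = 0.0938, adjusted p = 1). NDUFA11 and NDUFA7 followed on the higher side, with log2 differences of 0.83 for NDUFA11 with BCL2L11 and of 1.03 and 0.74 for NDUFA11 and NDUFA7 with TRIM9. On the lower side of complex I stood NDUFA5 (-0.29) and NDUFS1 (-0.25) with BCL2L11, and NDUFB1 (-0.80) and NDUFV3 (-0.19) with TRIM9, all short of the threshold.

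In complexes II to IV the lowest p belonged to SDHB, UQCRH, UQCRB and COX6B1. SDHB had 95.6 and 91.9 FPKM with the BCL2L11 trigger and 87.5 and 93.1 FPKM with the TRIM9 trigger, against 75.6 and 88.2 FPKM in GFP cells (log2 differences 0.20 and 0.14, SE 0.29 each). UQCRH had 563 and 213 FPKM with the BCL2L11 trigger and 399 and 223 FPKM with the TRIM9 trigger, against 208 and 198 FPKM in GFP cells, a log2 difference of 0.77 with BCL2L11 (SE 0.54), which was 0.11 within set 2 and 1.43 within set 1. UQCRB, which binds quinone in complex III, had 103 and 55.5 FPKM with the BCL2L11 trigger and 119 and 60.6 FPKM with the TRIM9 trigger, against 58.3 and 54.6 FPKM in GFP cells, and COX6B1, a subunit at the face of complex IV that meets cytochrome c, had 376 and 183 FPKM with the BCL2L11 trigger and 367 and 166 FPKM with the TRIM9 trigger, against 123 and 170.1 FPKM in GFP cells. None of these differences passed.

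ATP5MC3 (chromosome 2, 175176258 to 175184607, minus strand) was the member of lowest p on the lower side with the BCL2L11 trigger, and its groups did not overlap. It had 85.2 and 68.2 FPKM with the BCL2L11 trigger and 159 and 122 FPKM with the TRIM9 trigger, against 124 and 124 FPKM in GFP cells. The log2 difference for BCL2L11 against GFP was -0.86 within set 2 and -0.53 within set 1 (fitted log2 difference -0.69, SE 0.31, unadjusted p = 0.0628, adjusted p = 1), and against TRIM9 it was -0.86 (SE 0.31, unadjusted p = 0.0291, adjusted p = 1). Its 842-base transcript had 16.3 and 30.8 FPKM with the BCL2L11 trigger and 136 and 94.5 FPKM with the TRIM9 trigger, against 104 and 99.3 FPKM in GFP cells. Its 5484-base transcript ran the other way, with 33.7 and 20.6 FPKM with the BCL2L11 trigger and 13.6 and 14.7 FPKM with the TRIM9 trigger, against 8.80 and 10.8 FPKM in GFP cells. With the most abundant transcript in place of the gene sum the log2 difference was -2.13, which did not pass either. With BCL2L11 the sister genes stood at 0.48 (ATP5MC2) and 0.08 (ATP5MC1), and both changed sign when single libraries were left out, over -0.19 to 1.15 and -0.48 to 0.64. The 3 genes summed to 642 and 301 FPKM with the BCL2L11 trigger and 682 and 396 FPKM with the TRIM9 trigger, against 475 and 372 FPKM in GFP cells. Also lower with BCL2L11, short of the threshold, were ATP5PB of the outer stalk (-0.20) and ATP5F1C of the central stalk (-0.21), and with TRIM9 ATP5F1C (-0.35), ATP5F1E (-0.41) and ATP5F1A (-0.27), while ATP5MC2 had the lowest p of the complex with TRIM9 (0.53).

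Between the triggers the members of lowest p besides ATP5MC3 were NDUFA3 (0.50), NDUFB3 (0.50), NDUFB1 (1.0), NDUFA12 (0.33) and ATP5MF (0.42) on the higher side in BCL2L11 cells. On the lower side were NDUFA7 (-0.41), NDUFA5 (-0.21), UQCRC2 (-0.16) and ATP5F1D (-0.24). In complexes II and IV they were SDHB (0.05) and COX5B (0.42). None passed.

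GFP replicate 1 stood apart from the other libraries of its set for part of the members, as it did for part of all loci. It lay more than 1.5-fold below both trigger libraries of set 1 for 15 members (13.2% of all loci) and more than 1.5-fold above for 0 (8.00% of all loci), whereas GFP replicate 2 did so for 0 and 0 members (1.09% and 3.56% of all loci). These 15 were NDUFA1, NDUFA2, NDUFA3, NDUFA7, NDUFA11, NDUFA13, NDUFB10, NDUFC1 and NDUFS7 of complex I, UQCRH, UQCR10 and UQCRB of complex III, COX6B1 of complex IV, and ATP5MF and ATP5MC2 of ATP synthase. NDUFA11 (chromosome 19, 5891276 to 5904006, minus strand) had 244 and 143 FPKM with the BCL2L11 trigger and 344 and 135 FPKM with the TRIM9 trigger, against 75.1 and 146 FPKM in GFP cells. Most of that gap was in its 575-base transcript, with 191 and 109 FPKM with the BCL2L11 trigger and 278 and 105 FPKM with the TRIM9 trigger, against 7.94 and 117 FPKM in GFP cells. NDUFA13, which is also known as the cell death regulator GRIM-19, had 284 and 77.5 FPKM with the BCL2L11 trigger and 233 and 88.5 FPKM with the TRIM9 trigger, against 75.8 and 87.1 FPKM in GFP cells. A test of whether the set difference in GFP cells differed from that in trigger cells, chosen after the data were seen, called 0 of 15183 loci and 0 of 75 members, with 29 members at an unadjusted p under 0.05 (24.4% of all loci). The lowest adjusted p among members was 0.0629, for COX6B1. This library also had the fewest detected transcripts, and the part of that in these values was not tested.

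Between the library sets members of every complex but complex II passed the threshold. In the fit with group and set, 39 of the 75 tested members were lower in set 2 and 0 were higher, where 10.3% of all loci were lower and 22.5% higher (32.9% in either direction). The median log2 difference of the members was -0.74, against 0.06 over all loci, and 68 of 75 were negative. The 39 ranged from -1.99 to -0.61, 16 of them by more than 1, and each was lower in set 2 in all 3 groups with no overlap between the 3 libraries of each set. In all, the sets did not overlap for 50 members on the lower side (18.2% of all loci) and 3 on the higher (31.7% of all loci). The direction was the same in each group taken alone, with a median of -0.94 in BCL2L11 cells (69 of 75 negative), -0.64 in TRIM9 cells (67) and -0.50 in GFP cells (60). Of all loci 48.0%, 49.7% and 35.5% were negative in these groups, with medians of 0.04, 0.01 and 0.20. With FPKM rescaled by TMM factors, under which the median of all loci was -0.06 in place of 0.06, 54 members were lower and 0 higher, and 17.1% of all loci were lower and 17.3% higher. The count of 39 moved with the libraries used, as did the share of all loci that passed in either direction. The count was 17 without either BCL2L11 library (10.7% and 11.4% of all loci without replicate 1 and 2). It was 21 and 19 without TRIM9 replicate 1 and 2 (9.90% and 8.48% of all loci). Without either GFP library it was 64 (54.7% of all loci), with 61 lower and 3 higher (NDUFS1, NDUFA5 and SDHD). With no filter on low loci 0 of the 95 members then tested passed in limma, as did 0% of all 39154 loci (53 members at an unadjusted p under 0.05). With the most abundant transcript in place of the gene 0 of 75 passed, against 0.356% of all loci (50 members at an unadjusted p under 0.05). The member medians in these 2 fits were -0.57 and -0.77.

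The shift ran through 4 of the 5 complexes. In ATP synthase 10 of 17 tested members were lower in set 2 (median log2 difference -0.90), in complex I 19 of 37 (-0.68), in complex III 4 of 8 (-0.71) and in complex IV 6 of 9 (-0.80). In complex II 0 of 4 passed and the median was 0.22. Summed FPKM of complex I was 2326, 2397 and 2391 in set 2, against 5042, 4537 and 3524 in set 1. That of complex III was 668, 716 and 689 in set 2, against 1403, 1261 and 947 in set 1. In both complexes the set 2 libraries lay close together and below all set 1 libraries, among which GFP was lowest. The sum of complex IV was 1404, 1403 and 1391 in set 2, against 3122, 2522 and 2314 in set 1, and that of ATP synthase was 2183, 2429 and 2306 in set 2, against 4139, 3439 and 3850.0 in set 1. Set 2 was lower in each of the 3 groups for these complexes, at 0.543 of the set 1 mean for complex I, 0.574 for complex III, 0.528 for complex IV and 0.605 for ATP synthase. Complex II summed to 293, 304 and 307 in set 2, against 283, 268 and 251 in set 1, a ratio of 1.13, or 1.02 with TMM factors. Relative to GFP the sum of complex I was 0.973 with BCL2L11 and 1.003 with TRIM9 in set 2, but 1.43 and 1.29 in set 1. For complex III these ratios were 0.970 and 1.04 in set 2 and 1.48 and 1.33 in set 1, and for complex IV 1.01 and 1.01 in set 2 and 1.35 and 1.09 in set 1. For ATP synthase they were 0.947 and 1.05 in set 2 and 1.08 and 0.893 in set 1, so that the TRIM9 sum stood below the GFP sum in set 1.

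**Figure D3:**
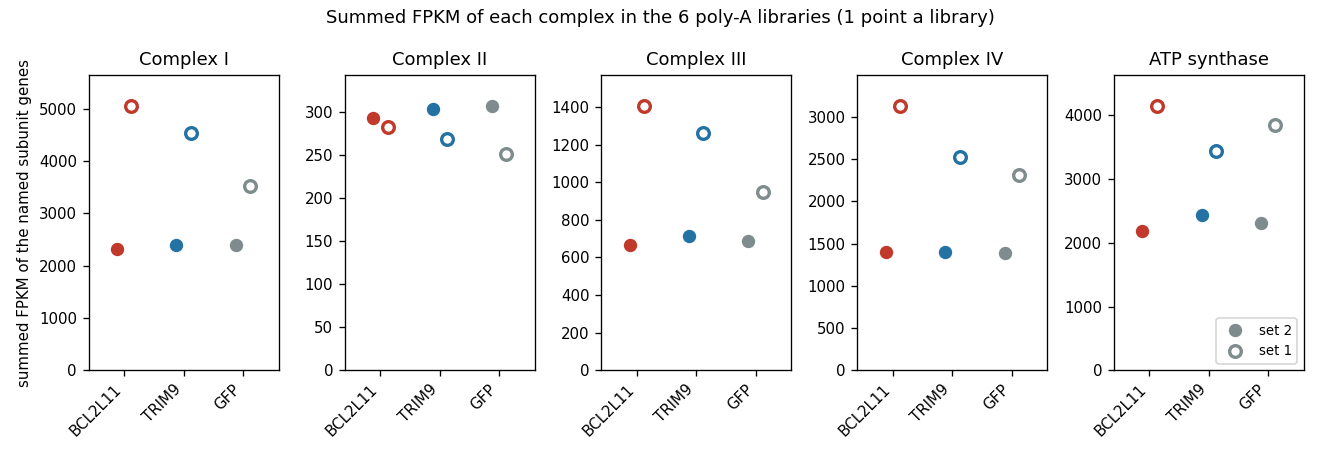
Summed FPKM of the members of each complex in the 6 poly-A libraries, 1 point a library, filled for set 2 and open for set 1, on axes that start at 0. The filled points of complexes I, III, IV and ATP synthase lie below the open ones in every group and close to each other, and those of complex II lie slightly above.

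In complex I the gene of lowest p was NDUFB2, an accessory subunit of the membrane arm (chromosome 7, 140690777 to 140722790, plus strand). It had 98.2, 87.5 and 91.3 FPKM in set 2, against 256, 216 and 218 FPKM in set 1 (log2 difference -1.30, SE 0.13, adjusted p = 0.0111, n = 3 libraries per set, limma). NDUFS6, a zinc-binding subunit at the NADH-oxidising arm, had 56.6, 48.7 and 66.3 FPKM in set 2, against 225, 144 and 126 FPKM in set 1 (log2 difference -1.48, SE 0.22, adjusted p = 0.0117). NDUFS8, an iron-sulfur core subunit next to the quinone site, had 84.6, 76.0 and 93.4 FPKM in set 2, against 174, 199 and 205 FPKM in set 1 (log2 difference -1.18, SE 0.14, adjusted p = 0.0111). For these 3 genes every library of set 2 lay below every library of set 1. NDUFB9 (-1.26), NDUFS5 (-1.19), NDUFB7 (-1.24) and the core subunit NDUFS3 (-0.84) completed the complex I genes among the 12 of lowest p. Of the 7 core subunits 4 were lower, NDUFS3 and NDUFS8 among them, and of the 30 accessory subunits 15. The most negative value belonged to NDUFB1, with 21.2, 19.5 and 15.6 FPKM in set 2, against 119, 31.5 and 120.04 FPKM in set 1 (-1.99, adjusted p = 0.0203), and its TRIM9 library of set 1 nearer to set 2 than to the other libraries of set 1. That gene's 317-base transcript had 7.99, 4.47 and 2.58 FPKM in set 2, against 97.1, 7.499 and 102.3 FPKM in set 1. NDUFS1 was the most positive, with 5.37, 6.30 and 5.61 FPKM in set 2, against 3.19, 3.35 and 4.73 FPKM in set 1 (log2 difference 0.52, SE 0.16, adjusted p = 0.0555), and did not pass.

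In complex III UQCR11 had 50.5, 54.0 and 46.8 FPKM in set 2, against 132, 98.1 and 112 FPKM in set 1 (log2 difference -1.15, SE 0.16, adjusted p = 0.0112), and UQCRQ, a small subunit near the quinone site, had 59.9, 73.8 and 78.8 FPKM in set 2, against 157, 135 and 159.8 FPKM in set 1 (-1.08). The core gene UQCRC1 was lower (-0.91, adjusted p = 0.0116), with UQCRFS1 the fourth (-0.65, adjusted p = 0.0210), and the other core gene UQCRC2 had a log2 difference of 0.01 (SE 0.13). In complex IV COX5B had 107, 87.2 and 105 FPKM in set 2, against 328, 223 and 183 FPKM in set 1 (log2 difference -1.25, SE 0.19, adjusted p = 0.012). COX7C (-1.16), COX8A (-1.01), COX7A2 (-0.92), COX6C (-0.80) and COX6A1 (-0.77) also passed, and COX5A, COX6B1 and COX7B did not. In ATP synthase ATP5MC1, a gene for the rotor ring, had 102, 103 and 104 FPKM in set 2, against 223, 246 and 194 FPKM in set 1 (log2 difference -1.09, SE 0.14, adjusted p = 0.0111). ATP5ME had the most negative value of the complex (-1.42), followed by ATP5F1E (-1.27). The catalytic subunit gene ATP5F1B stood at -0.21 (SE 0.14) and ATP5PB of the outer stalk at 0.05 (SE 0.15), so the members of 1 enzyme did not move by 1 factor. In complex II SDHD had 61.2, 62.1 and 61.7 FPKM in set 2, against 43.0, 42.7 and 49.6 FPKM in set 1 (log2 difference 0.45, SE 0.13, adjusted p = 0.0509), SDHC stood at 0.36, SDHB at 0.08 and SDHA at -0.38, none past the threshold. SDHA had 35.0, 34.9 and 49.9 FPKM in set 2, against 53.8, 54.9 and 46.3 FPKM in set 1, with the GFP cells going against the other groups.

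**Figure D4:**
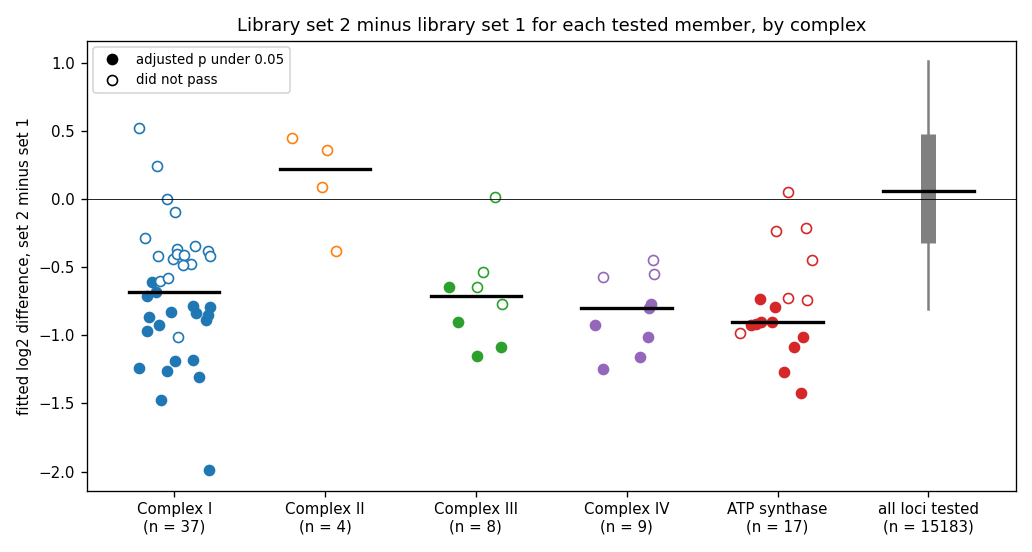
Fitted log2 difference between set 2 and set 1 for each tested member by complex (filled, adjusted p under 0.05; open, not past it; bar, median), beside all 15183 loci tested (thick bar, middle 50%; thin line, middle 90%; black bar, median). The medians of complexes I, III, IV and ATP synthase lie between -0.68 and -0.90, below the middle 50% of all loci, and complex II lies at 0.22.

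Transcript length moved with the set difference. Over all loci the median was -0.39 for loci whose main transcript is at most 1000 bases long, -0.14 from there to 3000 bases and 0.40 above 3000 bases. The members in these classes had medians of -0.85 (44 members), -0.45 (23) and -0.38 (8). Of the 44 short members 29 were lower, where 29.1% of all loci of that length were, of the 23 in the middle class 8 (13.0% of all loci) and of the 8 long ones 2 (1.28% of all loci). In each class the members' median thus lay below that of all loci, and the part of transcript length in the difference was not tested. Summed FPKM of all loci also differed, at 376984 to 389639 in set 2 and 441892 to 510837 in set 1.

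**Figure D5:**
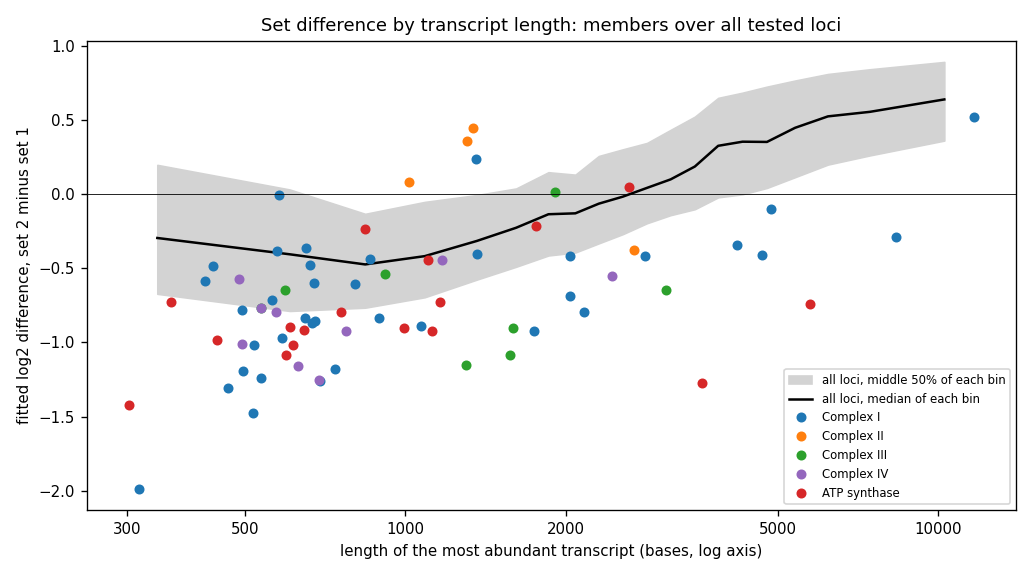
Fitted log2 difference between set 2 and set 1 (vertical) against the length of the most abundant transcript in bases (log axis), for the 75 tested members by complex, over the median (line) and middle 50% (grey) of all 15183 loci in 20 length bins. The line climbs with length beyond 1000 bases, and most members of complexes I, III, IV and ATP synthase lie under it, while 3 of the 4 members of complex II lie above it.

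Other genes of the pathway were read from lists, against the 10.3% of all loci that were lower and the 22.5% that were higher. Of 6 tested subunit genes outside the name patterns 3 were lower in set 2 and 0 higher. COX4I1, the largest nuclear subunit of complex IV, had 260.4, 223 and 266 FPKM in set 2, against 489, 504 and 457 FPKM in set 1 (log2 difference -0.95, SE 0.15, adjusted p = 0.0124), and NDUFAB1, the mitochondrial acyl carrier protein in complex I, stood at -0.82 and UQCRHL at -0.64. Of the 13 mitochondrially encoded subunits 0 were lower and 2 higher (median 0.40), a share of higher genes below that of all loci. MT-ND4L, a complex I subunit, had 1161, 1241 and 1239 FPKM in set 2, against 570.3, 485 and 659 FPKM in set 1 (log2 difference 1.10, SE 0.16, adjusted p = 0.0115), and MT-CO1, the catalytic subunit of complex IV, had 4818, 5824 and 5047 FPKM in set 2, against 3434, 3826 and 3146 FPKM in set 1 (log2 difference 0.59, SE 0.15, adjusted p = 0.0348). The median of the nuclear-encoded members was -0.74, and the contrast between the genomes was not itself tested.

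Assembly factors were mixed. For complex I 7 of 18 were lower and 1 higher, with NDUFAF8, needed for the assembly of the complex, at 73.0, 73.0 and 72.5 FPKM in set 2, against 278, 180.4 and 220.3 FPKM in set 1 (-1.6), and NUBPL, which delivers iron-sulfur clusters, at 0.87. For complex IV 8 of 24 were lower, led by COA3 (-1.04) and COX14 (-1.47), and 1 was higher, the membrane insertion factor COX18 (0.85). For complex III 2 of 6 were lower (UQCC2 -1.09, UQCC3 -1.23) and 1 higher (LYRM7 0.94), for complex II 1 of 4 was lower (SDHAF2 -0.56), and for ATP synthase 2 of 5 were lower, FMC1 (-0.87) and the inhibitor ATP5IF1 (-1.30). Among electron carriers and coenzyme Q synthesis 2 of 17 were lower, ETFB (-1.30) and COQ3 (-0.62), a share near the 10.3% of all loci, and cytochrome c (CYCS) stood at -0.06. Of 15 tested regulators of respiratory genes 0 were lower and 7 higher, with TFAM, which packages and transcribes mitochondrial DNA, at 34.6, 36.3 and 38.0 FPKM in set 2, against 16.2, 16.8 and 22.1 FPKM in set 1 (log2 difference 0.95, SE 0.14, adjusted p = 0.0116), GABPA at 1.08 and MTERF1 at 0.87. YY1, whose motif was searched in the promoters, was among the 7 (0.71), named here after its value was seen. These regulators summed to 247 to 277 FPKM in set 2, against 202 to 232 FPKM in set 1.

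The direction was shared with other abundant housekeeping lists. Of 84 tested cytosolic ribosomal protein genes 66 were lower in set 2 and 0 higher (median -0.85), of 78 mitochondrial ribosomal protein genes 35 lower and 2 higher (-0.56, the higher being MRPL42 and MRPL19), and of 34 proteasome genes 17 lower and 0 higher (-0.56). Of the 5 tested HEK293T markers 2 were higher, IRS4, with 65.4, 80.3 and 65.9 FPKM in set 2, against 9.46, 16.0 and 8.61 FPKM in set 1 (log2 difference 2.58, SE 0.16, adjusted p = 0.0111), and LIN28B, with 26.7, 32.2 and 26.1 FPKM in set 2, against 10.2, 11.9 and 13.0 FPKM in set 1 (1.21). Of the 5 other cell type lists 1 gene each was tested, and HBA1, at 2.35 to 7.45 FPKM, was lower in set 2 (-0.98) while HBB stayed at 0. Over its 5 markers the blood list summed to 2.43 to 3.77 FPKM in set 2, against 5.66 to 7.45 FPKM in set 1. The other lists overlapped between sets, with 2.01 to 2.51 FPKM in set 2 and 1.48 to 7.60 FPKM in set 1 for fibroblast markers, 1.56 to 2.25 and 1.51 to 2.03 FPKM for epithelial, 2.15 to 5.43 and 3.56 to 6.27 FPKM for heart and skeletal muscle, and 0.650 to 2.34 and 0.632 to 2.97 FPKM for liver markers. Their part in the members' difference was not tested.

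The authors' deposited tables listed 72 members for BCL2L11 against GFP and 70 for TRIM9 against GFP, and none had a q-value below 0.05. The trigger genes themselves did not pass there either, at log2 fold changes of 12.88 (BCL2L11) and 11.78 (TRIM9). These q-values therefore could not show whether a member changed. At an unadjusted p under 0.05 the authors' deposited table held 1 member for BCL2L11, UQCRC2 (log2 fold change -0.18, p = 8.44e-04, q = 1), where 3.52% of the genes listed had such a p. For TRIM9 the authors' deposited table held 3, SDHB (0.23, p = 0.0101), ATP5PB (-0.23, p = 0.0226) and ATP5F1C (-0.40, p = 0.0258), where 2.48% did. In the authors' deposited table for BCL2L11 21 members were higher and 51 lower (median -0.24, all genes listed -0.04), whereas in the fit on FPKM 49 of 75 were positive. In the authors' deposited table for TRIM9 27 were higher and 43 lower (median -0.15, all genes listed -0.02), whereas in the fit 39 of 75 were positive. The sign in the authors' deposited table was that of the fit for 41 of 72 members with BCL2L11 and 60 of 70 with TRIM9. ATP5MC3 was among those of opposite sign, at 0.30 for BCL2L11 in the authors' deposited table. The sources used here do not say how gene levels were summarised for them.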

How the data were processed

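Poly-A RNA of 6 libraries (3 groups, 2 each) was used, and the small RNA libraries were not. Per the submitters' processing notes STAR, StringTie 2.1.3, cutadapt 3.4 and DESeq2 1.20.0 were used with hg38. The deposited StringTie tables hold, per the file headers, FPKM and a coverage signal (reads over each base on average) for 250719 transcripts in each library. Read counts per gene were not used here, so no counting interval is given. The authors' deposited gene tables list q-value, p-value, log2 and linear ratio (fold change) of each gene, and the sources used here do not name the tool behind them.

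Gene FPKM was the sum over a locus's transcripts. log2(FPKM + 1) was fitted in limma 3.58.1 (R 4.3.3, trend, group only, all 6 libraries) for loci that reached an FPKM of 1 in 2 or more libraries, two-sided, with Benjamini-Hochberg adjustment over 15183 loci. The smallest p of an exact test with 2 libraries a group is 0.333. The set comparison added a term for the set. A fold change on this scale understates that of low genes. The fits were tested on simulated data. For the trigger comparisons these data held no set difference, so that check does not cover the trigger fits as run here. Over all loci the groups' differences between sets correlated at 0.83 (BCL2L11 and TRIM9), 0.58 (BCL2L11 and GFP) and 0.49 (TRIM9 and GFP). Over the 75 tested members these correlations were lower, at 0.69, 0.53 and 0.18. No pair of libraries held identical values (0 of 15).

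The alternatives were TMM factors computed on the FPKM table and upper quartile scaling, a pseudocount of 0.1, an FPKM minimum of 5, no filter, no trend, assembled chromosomes only, the most abundant transcript, a term for the set or no term for group, the compared groups alone, and leaving out each library. Summing all loci of a symbol and the test of the GFP set difference were added after seeing the data. Members, gene lists and motifs were chosen with earlier results of these data known. The rule for naming took the 3 highest and 2 lowest members of each complex, paralogs, the members of lowest p by comparison and complex, and up to 3 per list. Others, such as those listed for GFP replicate 1, were named after their values were seen. RefSeq symbols changed since the files' annotation were matched through synonyms, and promoters of 12 tested members were not used here. The values of 1 tested member are not reported here, though it enters the counts.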

Additional observations from a re-analysis of the deposited data

How the results depend on the processing

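Under the alternatives that kept all libraries the count of members past the threshold stayed at 0 for both triggers and between them, and with one library left out it was 0 in every case. With a term for the library set as replicate block, which assumes a pairing the labels do not state, 0 members passed for BCL2L11, TRIM9 and BCL2L11 against TRIM9 (4, 2 and 1 at an unadjusted p under 0.05, lowest adjusted p 0.824, 0.771 and 1). Over all loci 1, 6 and 3 passed in these fits (0.00659%, 0.0395% and 0.0198%). Scaling moved the medians over members for BCL2L11 against GFP to 0.18 with TMM factors and 0.15 with upper quartile scaling (all loci 0.0034 and -0.02), in place of 0.08. For TRIM9 against GFP they were 0.068 with TMM factors, 0.031 with upper quartile scaling and 0.029 with the most abundant transcript, in place of 0.0013. Leaving out each library gave medians of -0.32 to 0.64 for BCL2L11, -0.26 to 0.38 for TRIM9, -0.39 to 0.50 between the triggers and -0.84 to -0.59 for the sets.

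In the set comparison 17 to 64 members passed when a library was left out (8.48% to 54.7% of all loci). With no filter 0 passed (0% of all loci), and 0 with the most abundant transcript (0.356% of all loci). The filter's alternative tested 39154 loci, and the cause for the transcripts was not tested. Complex II summed to a ratio of 1.02 between sets with TMM factors and 1.09 for TRIM9 against GFP with the most abundant transcript. As higher in set 2 SDHD passed with an FPKM of at least 5 and NDUFS1 with all loci of a symbol summed. Both passed with no term for group, where 42 members were lower (12.4% of all loci were lower and 24.3% higher).

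When single libraries were left out 61 of the 75 members changed sign at least once for BCL2L11, 60 for TRIM9, 70 between the triggers and 4 between sets. Under the other alternatives 19, 20, 27 and 8 did, and none of the members past the threshold between sets was among these 8. Among the members of lowest p these changed sign, all short of the threshold, and the cause was not tested. With the most abundant transcript they were ATP5F1C (0.61), NDUFV3 (0.30) and ATP5F1A (0.25) for TRIM9 and ATP5F1D (0.025) between the triggers. Leaving out a library gave, for BCL2L11, NDUFS1 -0.55 to 0.049 and ATP5F1C -0.61 to 0.19. For TRIM9 it gave ATP5F1C -0.74 to 0.054, NDUFB1 -2.23 to 0.64, ATP5F1E -1.21 to 0.40, NDUFV3 -0.57 to 0.19 and ATP5F1A -0.64 to 0.10. Between the triggers it gave NDUFB3 -0.15 to 1.15, NDUFB1 -0.22 to 2.22, NDUFA12 -0.16 to 0.81, ATP5MF -0.54 to 1.37, NDUFA5 -0.47 to 0.047, ATP5F1D -0.82 to 0.35 and COX5B -0.38 to 1.23. Between sets the 4 were UQCRC2 (-0.040 to 0.063), ATP5PB (-0.046 to 0.16), NDUFA11 (-1.05 to 0.095) and NDUFA7 (-0.42 to 0.30). None of the 12 members of lowest p nor SDHD changed sign there, but UQCRC1 lost the threshold without either TRIM9 library, NDUFS3 without any BCL2L11 or TRIM9 library and ATP5MC1 without TRIM9 replicate 2. Reads per gene were not used here, so no counting error stands beside these values.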
